A study of Drosophila melanogaster with 6 samples.

Results

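The mucin and chitin-binding protein genes described here are 31 of the 11982 genes that had a probe set of their own on the array. They are the genes whose symbol begins with Muc or Mur and a digit, with obst- or with Peritrophin-, together with Gasp, and each is read by the brightest of its probe sets. There were 13 Muc genes (mucins), 6 Mur genes (mucin-related), 8 obst- genes (the obstructor family), 3 Peritrophin- genes and Gasp. Symbols, and not values, picked the genes, but the set was put together with earlier results of these arrays known. Its counts are therefore described beside the background and were not tested as a set.

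RNA came from whole prepupae of Drosophila melanogaster, raised at 25 °C and taken at 0 h, directly after pupariation. The mutants were homozygous for the allele sox14L1 in a w1118 background (genotype w1118; sox14L1/sox14L1), and the controls were w1118 animals, so both groups carry w1118. Sox14 encodes a transcription factor of the HMG-box family. Each of the 6 Affymetrix Drosophila Genome 2.0 arrays held RNA from a pool of 10 prepupae, with 3 arrays per genotype. Nothing in the labels says that the pools came from separate cultures, and the p-values then measure the spread between these pools alone, which may be technical. What the lesion of sox14L1 is, and how the stock was kept, is not stated in the labels. All levels below are log2 values after RMA (robust multi-array averaging), and every change is the mutant mean less the control mean, in log2 units, with its standard error.

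Mucins are secreted or membrane-bound proteins with long stretches rich in serine and threonine, to which O-linked sugars are attached, and they form hydrated coats on epithelia. Peritrophins and obstructors carry a small chitin-binding domain held together by disulfide bonds between conserved cysteines. In insects, such proteins knit chitin fibres into the peritrophic matrix, the sheath that separates food from the midgut epithelium, and into the linings of the tracheae and the cuticle. At pupariation the larval cuticle hardens into the puparium, and the larval midgut soon begins to be replaced.

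More of these genes were higher than lower in the mutant. Of the 31, 12 rose, 3 fell and 16 were not called (limma, Benjamini-Hochberg adjusted p under 0.05 over all probe sets). That is 48.4% of them, against a background of 24.7% of all 11982 genes. By direction, 38.7% rose against a background of 11.3%, and 9.68% fell against 13.4%. On 14 of the 31 the mutant arrays all lay above the control arrays, against a background of 18.3% of genes, and on 3 all below, against 24.5%. The median change of the 31 was 0.28 and that of all genes was -0.03. The 12 rises lay between 0.55 and 2.09. Without the third control array 7 of the 31 rose, and without the second mutant array 1 fell.

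The strength of the signal matters for this set, because 9 of the 31 were too dim for a size. These were Muc4B, Muc12Ea, Muc14A, Muc30E, Muc68Ca, Muc68D, Mur2B, Mur11Da and Mur82C, which on all 6 arrays lay at or under the 95th percentile of the array's 100 AFFX-Dm control probe sets (the low range). Of the 19 genes above the low range on all 6 arrays, 9 rose and 2 fell, a share of 57.9%, against a background of 29.0% of all such genes. The low range reached 6.36 to 6.75 on the mutant arrays and 5.93 to 5.96 on the control arrays. When the 2 control probe sets that differed by more than 1 between the genotypes were left out, a step chosen after seeing the data, it reached 5.73 to 5.99 and 8 of the 31 lay in it throughout, with Mur2B no longer among them.

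**Figure D1:**
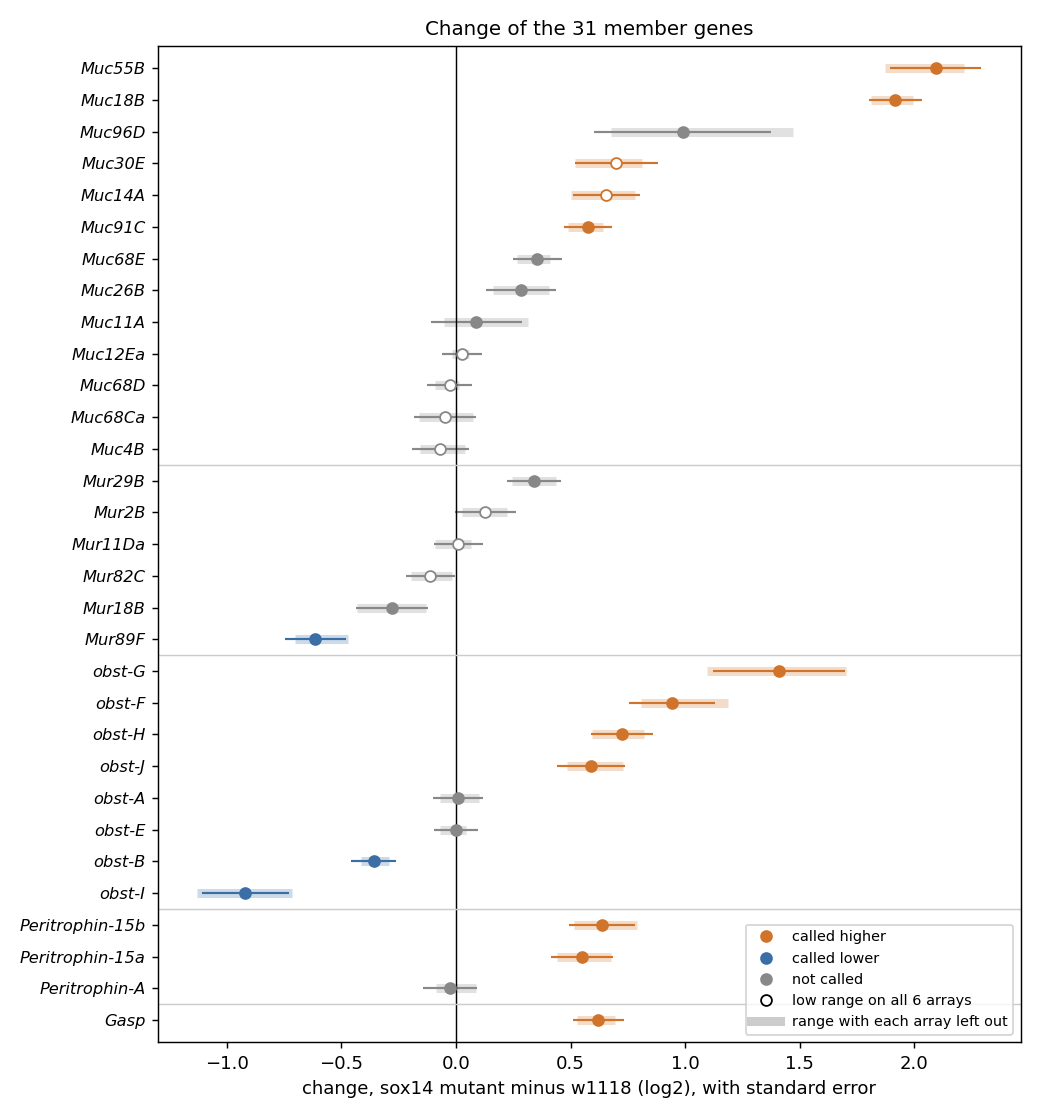
Change of each of the 31 genes (mutant minus control, log2, points with standard errors), with pale bars for the range when each array was left out in turn; orange marks genes called higher, blue genes called lower, grey genes not called, and open points genes in the low range on all 6 arrays. The changes run from -0.92 for obst-I to 2.09 for Muc55B, and 12 of the 31 points are called higher.

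The mucin genes gave the 2 largest rises. Muc55B, a mucin gene named after its chromosome band like the others, read 9.93, 9.71 and 9.45 on the mutant arrays and 7.82, 7.16 and 7.83 on the control arrays. The mutant arrays all lay above the control arrays, and the second control array was the lowest. It rose by 2.09 ± 0.20 (4.27-fold, adjusted p = 0.000152). Muc55B is the sole member on arm 2R, where Sox14 lies, and for it, linked strain differences and the allele's own effect cannot be told apart.

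Muc18B read 9.63, 9.74 and 9.77 on the mutant arrays and 7.59, 7.86 and 7.95 on the control arrays. The mutant values lay within 0.14 of each other and stood well clear of the control values. The rise was 1.92 ± 0.11 (3.78-fold, adjusted p = 9.66e-06), and it ranged from 1.81 to 1.99 with each array left out. Muc18B lies on the X chromosome, as does its next protein-coding neighbour, the mucin-related gene Mur18B, with 0 protein-coding genes between them in the RefSeq annotation. Mur18B read 11.20, 10.91 and 11.51 on the mutant arrays and 11.39, 11.40 and 11.67 on the control arrays. Its genotypes overlapped, and its change of -0.28 ± 0.16 did not pass the test (adjusted p = 0.281).

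Another mucin gene above the low range on most arrays, Muc91C, read 6.84, 6.78 and 6.72 on the mutant arrays and 6.24, 6.34 and 6.03 on the control arrays, with no overlap between the genotypes. It rose by 0.57 ± 0.10 (adjusted p = 0.00574), and 1 of its 3 mutant values lay in the low range. With the control probe sets that differed between the genotypes left out of that range, 0 did. Muc30E and Muc14A were also called higher (adjusted p = 0.028 and adjusted p = 0.0149), but both lay in the low range on all 6 arrays. Muc30E read 5.74, 5.23 and 5.38 on the mutant arrays and 4.95, 4.92 and 4.39 on the control arrays, and Muc14A read 5.03, 4.46 and 4.66 on the mutant arrays and 4.11, 4.14 and 3.94 on the control arrays. In both genes every mutant value lay above every control value, while the size of either difference cannot be read at this signal. Both calls were lost without the third control array (adjusted p = 0.0734 and 0.0592), and that of Muc30E also without the first mutant array (0.0876) or the third (0.0566).

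Of the 8 mucin genes not called, 4 lay above the low range. Muc68E read 12.80, 12.51 and 12.56 on the mutant arrays and 12.18, 12.32 and 12.31 on the control arrays. Its genotypes did not overlap, yet its change of 0.35 ± 0.11 missed the threshold (adjusted p = 0.0511), and it was called under 5 of the other settings tried. Muc11A read 11.35, 10.74 and 11.47 on the mutant arrays and 10.84, 11.16 and 11.29 on the control arrays, overlapping throughout, with a change of 0.09 ± 0.20 (adjusted p = 0.815).

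Muc96D had the widest spread of the 31 between mutant arrays. It read 11.23, 9.64 and 10.94 on the mutant arrays and 9.94, 9.78 and 9.13 on the control arrays, so that the second mutant array lay among the controls and the other mutant arrays above them. The change was 0.99 ± 0.39 (adjusted p = 0.121), and 1.47 without the second mutant array (adjusted p = 0.00517). Its other probe set gave 1.13 ± 0.43 (adjusted p = 0.115), and both probe sets of Muc96D read the second mutant array lowest of the 3. Muc26B was 0.28 ± 0.15 higher without passing the test (adjusted p = 0.26). Muc4B, Muc12Ea, Muc68Ca and Muc68D were in the low range on all 6 arrays, with changes from -0.07 to 0.03. Of the 3 probe sets of Muc68Ca, one of those not chosen by brightness was called (0.36 ± 0.10, adjusted p = 0.0435), also at low signal.

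**Figure D2:**
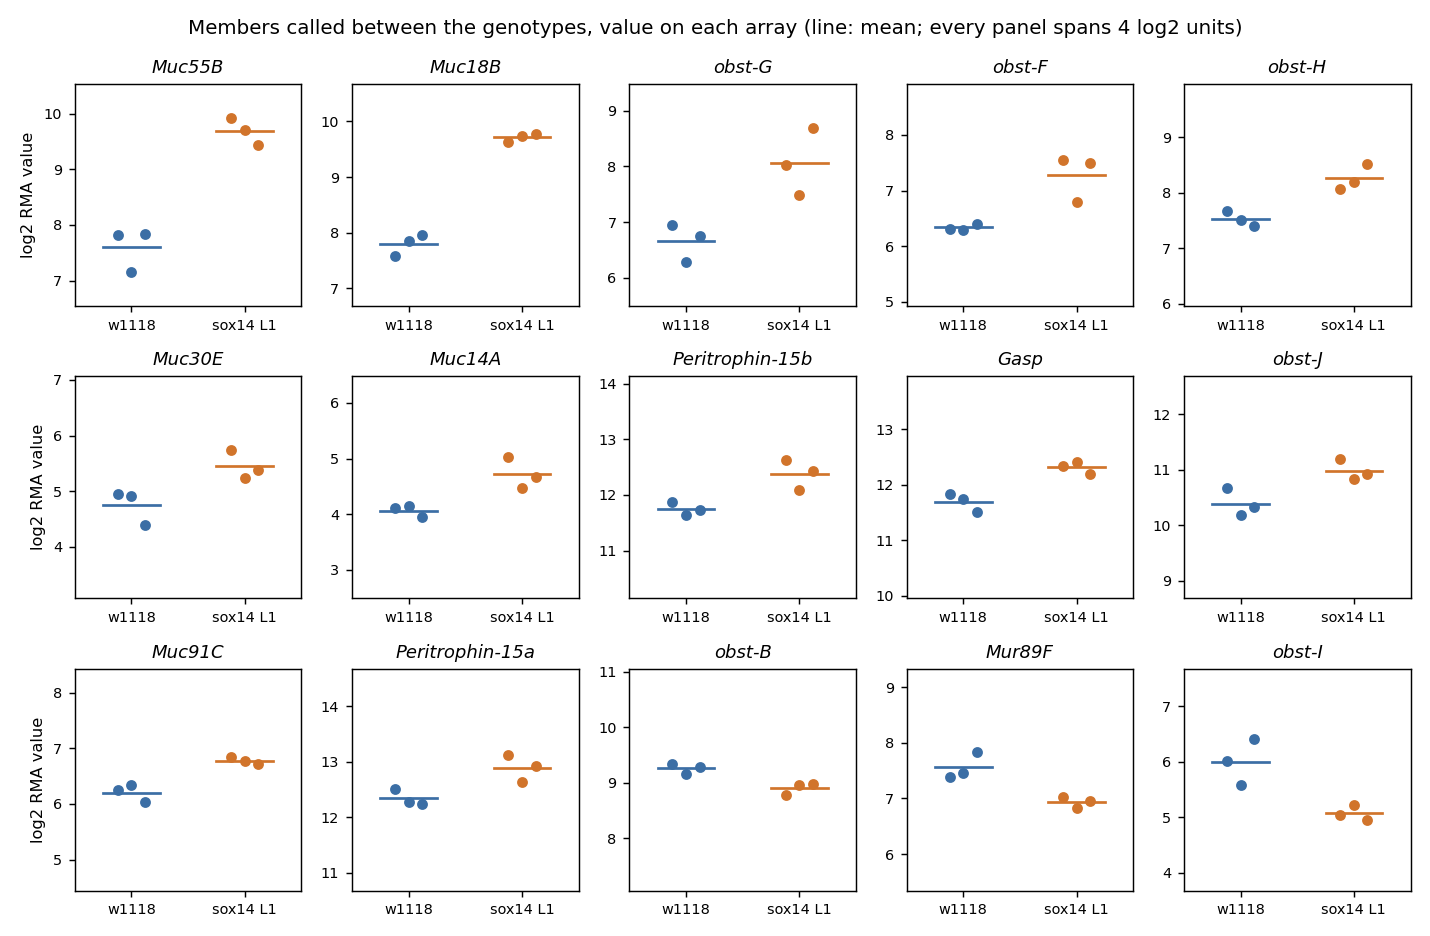
Value of the 15 called genes on each array (log2 RMA values, points; lines mark the mean of the 3 arrays of a genotype), with every panel spanning the same log2 range. In each panel the 3 mutant arrays (orange) lie wholly above or wholly below the 3 w1118 arrays (blue), widest apart for Muc55B and Muc18B.

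Of the 6 Mur genes 0 rose and 1 fell by limma's adjusted p. The 16.7% called is near the background of 24.7%, and is not a result about these genes as a group. At an unadjusted p under 0.05, 1 was higher and 1 lower, and with a trended robust prior Mur29B was called higher. Mur89F read 7.03, 6.83 and 6.96 on the mutant arrays and 7.38, 7.45 and 7.84 on the control arrays, each mutant value below each control value. It fell by 0.61 ± 0.13 (adjusted p = 0.0133), and with the second mutant array left out it was no longer called (adjusted p = 0.0543). Its other 2 probe sets, both dimmer, were not called (-0.18 ± 0.13 and -0.07 ± 0.09). Mur29B read 13.94, 13.77 and 13.96 on the mutant arrays and 13.74, 13.56 and 13.35 on the control arrays. All mutant values lay above the highest control value, by a small margin, and the change of 0.34 ± 0.12 did not pass the test (adjusted p = 0.0841). Mur2B, Mur11Da and Mur82C lay in the low range on all 6 arrays, with changes of 0.13, 0.01 and -0.11. A difference between the Muc and the Mur genes as groups was not tested.

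The obstructor genes moved both ways, with 4 of 8 higher, 2 lower and 2 not called. That is 50% higher against a background of 11.3%, and 25.0% lower against 13.4%. The higher ones were obst-F, obst-G, obst-H and obst-J, all on chromosome arm 3L. obst-G read 8.03, 7.48 and 8.69 on the mutant arrays and 6.95, 6.29 and 6.74 on the control arrays. The groups did not overlap, but the mutant arrays were far apart, the second lowest and the third highest. It rose by 1.41 ± 0.29 (2.66-fold, adjusted p = 0.0101), and by 1.096 to 1.704 with each array left out. obst-F read 7.55, 6.80 and 7.49 on the mutant arrays and 6.31, 6.29 and 6.40 on the control arrays. Its control arrays lay within 0.11 of each other and its second mutant array was again the lowest of the 3. The rise of obst-F was 0.94 ± 0.19 (adjusted p = 0.00861).

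obst-H read 8.07, 8.19 and 8.52 on the mutant arrays and 7.68, 7.51 and 7.41 on the control arrays, with the third mutant array highest and no overlap. It rose by 0.73 ± 0.14 (adjusted p = 0.00635). obst-J, which lies near obst-F with 5 protein-coding genes between them, read 11.19, 10.84 and 10.92 on the mutant arrays and 10.67, 10.18 and 10.32 on the control arrays. Its lowest mutant value lay 0.17 above its highest control value, and it rose by 0.59 ± 0.15 (adjusted p = 0.0246). The call of obst-J was lost without the first mutant array (adjusted p = 0.0806), the third mutant array (0.0514), the second control array (0.0649) or the third (0.0842), and with array weights (0.0534). Those of obst-F, obst-G and obst-H were kept with any array left out.

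The 2 obstructor genes that fell were obst-I and obst-B. obst-I read 5.05, 5.22 and 4.95 on the mutant arrays and 6.01, 5.58 and 6.40 on the control arrays. Its mutant values were all in the low range and 1 control value was too, so that the change of -0.92 ± 0.19 (adjusted p = 0.0107) gives a direction but no size. obst-B read 8.77, 8.97 and 8.97 on the mutant arrays and 9.34, 9.16 and 9.29 on the control arrays, a narrow gap without overlap. It fell by 0.36 ± 0.10 (adjusted p = 0.0369), but the call was lost with any array other than the second control array left out (adjusted p from 0.064 to 0.116), and with a replicate block (0.0767). obst-I lies on arm 3L, as do the obstructor genes that rose, and obst-B lies on arm 2L.

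The remaining obstructor genes with known roles in the cuticle showed the smallest differences. obst-A, whose protein is a scaffold that orders and protects the chitin of the newly made larval cuticle, read 12.87, 13.21 and 13.08 on the mutant arrays and 12.98, 13.12 and 13.03 on the control arrays. These values overlapped fully, with a change of 0.01 ± 0.11 (adjusted p = 0.969). obst-E, whose protein lets the larval cuticle contract along the body and widen at pupariation and so sets the shape of the puparium, read 6.66, 6.84 and 6.61 on the mutant arrays and 6.74, 6.67 and 6.70 on the control arrays. The change of obst-E was 0.00 ± 0.09 (adjusted p = 0.999) with the brighter probe set and 0.02 ± 0.10 with the dimmer. A p that misses the threshold does not show that either gene was alike in both genotypes.

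Gasp rose. It encodes an obstructor-type protein secreted into the lumen of the embryonic tracheae, where it is needed for the chitin matrix that widens the tubes. Gasp read 12.33, 12.41 and 12.20 on the mutant arrays and 11.83, 11.74 and 11.50 on the control arrays, with each mutant value above each control value. The rise was 0.62 ± 0.11 (1.54-fold, adjusted p = 0.00567), and it ranged from 0.53 to 0.69 with each array left out.

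Both small peritrophin genes rose by similar amounts. Peritrophin-15a and Peritrophin-15b, neighbours on 2L with 0 protein-coding genes between them, encode short proteins related to a peritrophic matrix protein of the sheep blowfly. Peritrophin-15b read 12.64, 12.08 and 12.43 on the mutant arrays and 11.87, 11.64 and 11.72 on the control arrays. Peritrophin-15a read 13.11, 12.64 and 12.92 on the mutant arrays and 12.51, 12.28 and 12.24 on the control arrays. In both genes the second mutant array was the lowest of the mutant arrays and still above all control arrays, by 0.22 and 0.13. Peritrophin-15b rose by 0.64 ± 0.14 (adjusted p = 0.0156) and Peritrophin-15a by 0.55 ± 0.14 (adjusted p = 0.0242). The call of Peritrophin-15b was lost without the third control array (adjusted p = 0.0548). That of Peritrophin-15a was lost without the first mutant array (0.0728), the third (0.0686), the second control array (0.0612) or the third (0.0843), and with array weights (0.068). Whether the probe sets of these neighbours read each other's transcript was not tested.

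Peritrophin-A, also known as obst-D, read 7.74, 7.53 and 7.59 on the mutant arrays and 7.55, 7.52 and 7.87 on the control arrays. It overlapped fully between the genotypes, with a change of -0.03 ± 0.12 (adjusted p = 0.916), and its probe set is of a type named as shared between transcripts. It lies beside obst-A on the X chromosome, with 0 protein-coding genes between them, and neither was called. In contrast, obst-G and Muc68E on 3L, with 4 protein-coding genes between them, were 1.41 and 0.35 higher, the first called and the second not.

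Across the chromosomes, 5 of the 8 genes on chromosome 2 were called (4 higher, 1 lower), a share of 62.5% against a background of 26.8% of genes on that chromosome. Of the 23 genes on other chromosomes 10 were called (8 higher, 2 lower), or 43.5%, against a background of 23.4%. The mutants are homozygous for a second chromosome that the controls do not carry. For the 8 genes on it (Muc26B, Muc30E, Muc55B, Mur29B, Peritrophin-15a, Peritrophin-15b, obst-B and obst-E), linked strain differences and the Sox14 allele cannot be told apart. The labels do not say how the stock was kept, and strain differences on the other chromosomes were not tested. On the X, 2 of 10 were called, both higher, a share of 20.0% that is near the background of 21.3% of genes on the X.

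The mutant arrays differed among themselves in these genes. The second mutant array was the lowest of the 3 for 17 of the 31 genes (54.8%), against 27.8% of all genes, and the first was the highest for 16 (51.6%, against 35.9%). The largest deviations of the second array from the mutant mean were in Muc96D (-0.96), obst-G (-0.59), obst-F (-0.48) and Muc11A (-0.45). On the same array the summed linear level of the 8 measured salivary gland markers was 21942, against 90522 and 97779 on the other mutant arrays and 74876 to 93440 on the control arrays. The part of this in the members' spread was not tested. Leaving the second mutant array out, 13 of the 31 rose and 1 fell.

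**Figure D3:**
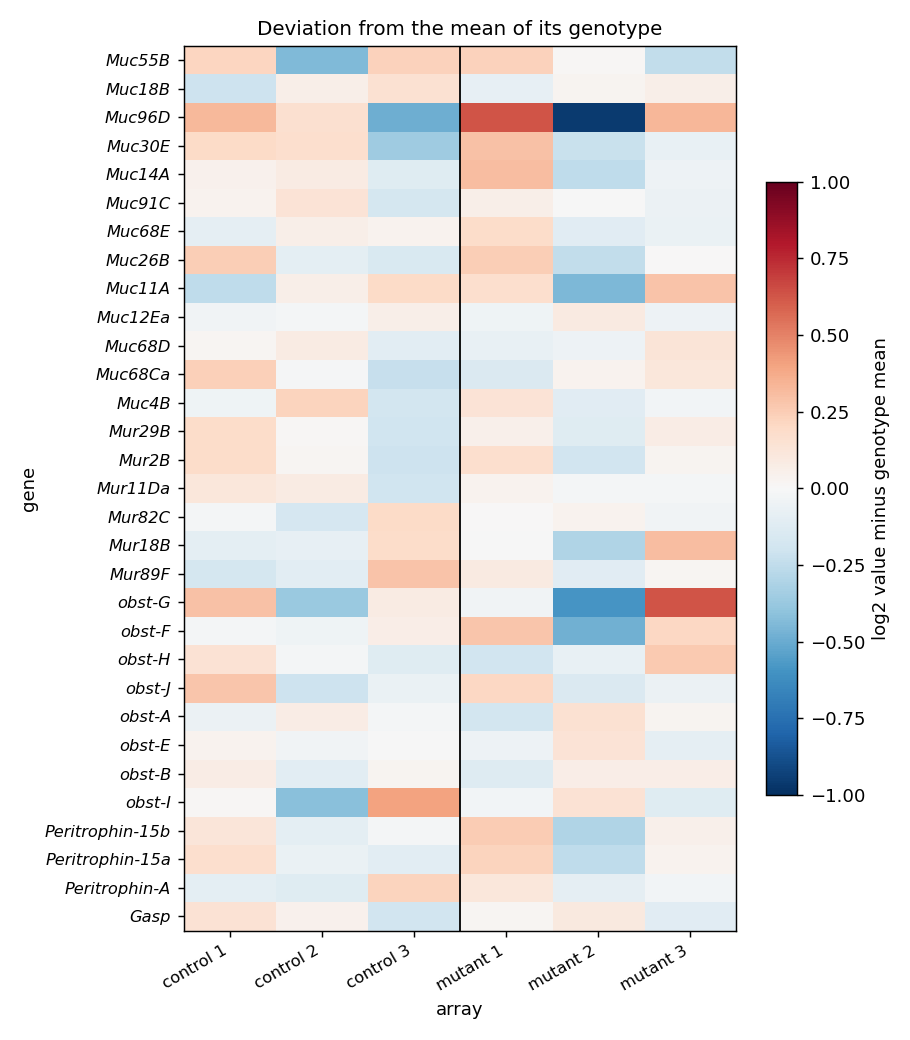
Deviation of each gene on each array from the mean of its genotype (log2, colour scale from -1 to 1), with genes in rows and the 3 control and 3 mutant arrays in columns. The second mutant array is blue in most of the mucin and peritrophin rows, down to -0.96 in Muc96D, while Muc18B and Gasp vary little between the mutant arrays.

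In control probe sets, 1 array stood apart. The first mutant array had an 18S rRNA mean of 12.18 against 7.56 to 7.94 on the other arrays. It also had an actin 3' minus 5' difference of 1.77 against 0.54 to 0.88. Without it 9 of the 31 rose and 2 fell. The targeted gene checked the labels: Sox14 read 10.34, 10.67 and 10.73 on the mutant arrays and 11.40, 11.60 and 11.72 on the control arrays. It fell by 0.99 ± 0.13 (adjusted p = 0.00101).

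Enzymes that act on mucins were measured beside the mucins themselves. Of 14 measured genes for mucin-type O-glycosylation and secretion, 3 rose and 2 fell, 35.7% called against the background of 24.7%, with a median change of 0.04. Their summed linear level was lower on all mutant arrays, at 11572.5 to 12517.8 against 13032 to 13275 on the control arrays. Pgant4, one of the enzymes that attach the first sugar to serine or threonine, read 8.71, 8.95 and 8.49 on the mutant arrays and 6.72, 6.54 and 6.67 on the control arrays. It rose by 2.07 ± 0.13 (adjusted p = 1.15e-05), with the groups far apart. C1GalTA, the main enzyme that adds galactose to that first sugar, read 10.87, 10.88 and 10.72 on the mutant arrays and 11.86, 11.66 and 11.82 on the control arrays, and it fell by 0.96 ± 0.10 (adjusted p = 0.000225). tgy, a gene of the same galactosyltransferase family, rose by 1.06 ± 0.11 (adjusted p = 0.000264). Pgant4 and C1GalTA lie on 2L. C1GalTA was the brightest of the 14 genes on the control arrays (mean 11.78), so it weighs most in the summed level. The sum without C1GalTA was not computed, and the lower sum is not a fall of the list as a whole.

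Genes that make and turn over chitin, the polymer these proteins bind, moved both ways. Of 23 measured, 4 rose and 4 fell (34.8% against the background of 24.7%), with a median change of 0.02. The fall of Gfat1 was lost with any array left out (adjusted p from 0.0513 to 0.135). The rises of reb and serp were each lost in 4 of the 6 fits with an array left out. The chitinase family genes Cht9 and Cht4, both on 2R, rose by 2.12 ± 0.10 (adjusted p = 3.35e-06) and 2.30 ± 0.23 (adjusted p = 0.000233), while Cht11 on the X fell by 1.55 ± 0.11 (adjusted p = 3.33e-05). The chitin synthase genes, named after their values were seen, were not called. Chs2, the synthase of the midgut, changed by 0.20 ± 0.11 (adjusted p = 0.289) and kkv, the synthase of cuticle and tracheae, by 0.07 ± 0.11 (adjusted p = 0.713).

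Markers of the tissues in which such proteins are made differed in their behaviour. RNA came from the whole body, so fewer cells of a tissue and less RNA per cell cannot be told apart. Of 21 measured midgut markers 15 rose and 2 fell, 81.0% called against the background of 24.7%, with 1 of 21 in the low range throughout. Their summed linear level was 146391 to 163239 on the mutant arrays against 69781 to 76350 on the control arrays. Of those that rose, alphaTry, betaTry, epsilonTry, Jon44E, Mal-A1, Mal-A6, Mal-A7 and Mal-A8 lie on 2R, the arm of Sox14. For these genes, linked strain differences and the allele's own effect cannot be told apart. The others that rose lie on 3L or 3R. Any part of the midgut level, or of the muscle level given below, in the members' changes was not tested. Of 8 measured tracheal markers 1 rose (serp, 0.39 ± 0.10, adjusted p = 0.0231) and 1 fell (btl, -0.64 ± 0.17, adjusted p = 0.0329), and this 25.0% is at the background of 24.7%. The call of serp was lost without the second or the third mutant array or the first or the second control array, with adjusted p up to 0.0973. That of btl was lost without any 1 of the mutant arrays or the first control array, up to 0.101. The summed tracheal level overlapped, at 11246 to 14511 in the mutant and 12599 to 15042 in the control, while Gasp rose. These whole-body arrays do not show which tissue the Gasp RNA came from. serp and verm, which act on tracheal chitin, are in both the tracheal and the chitin list. Of the markers taken as defining, trh and Mhc are not analysed here, since no probe set names them alone. The midgut marker betaTry, on 2R, rose by 5.82 ± 0.17 (adjusted p = 3.04e-07). In the same list GATAe was not called (-0.01 ± 0.09, adjusted p = 0.945). The midgut markers that fell were Jon25Bii (-0.60 ± 0.18, adjusted p = 0.0454) and Jon25Biii (-1.24 ± 0.29, adjusted p = 0.0186). Both calls were lost in some fits with an array left out, with adjusted p up to 0.12 and 0.059. The salivary gland marker Sgs3 did not pass the test (adjusted p = 0.942) and the hindgut marker byn fell by 0.38 ± 0.11 (adjusted p = 0.0441), a call lost with any array but the first control array left out (up to 0.133). Of 8 salivary gland markers 1 rose and 1 fell, and of 6 hindgut and Malpighian tubule markers 1 rose and 1 fell. These are shares of 25.0% and 33.3% against the background of 24.7%. Of 7 muscle markers all 7 rose (100%). Summed muscle levels were 6981 to 9035 against 2248 to 2508.

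**Figure D4:**
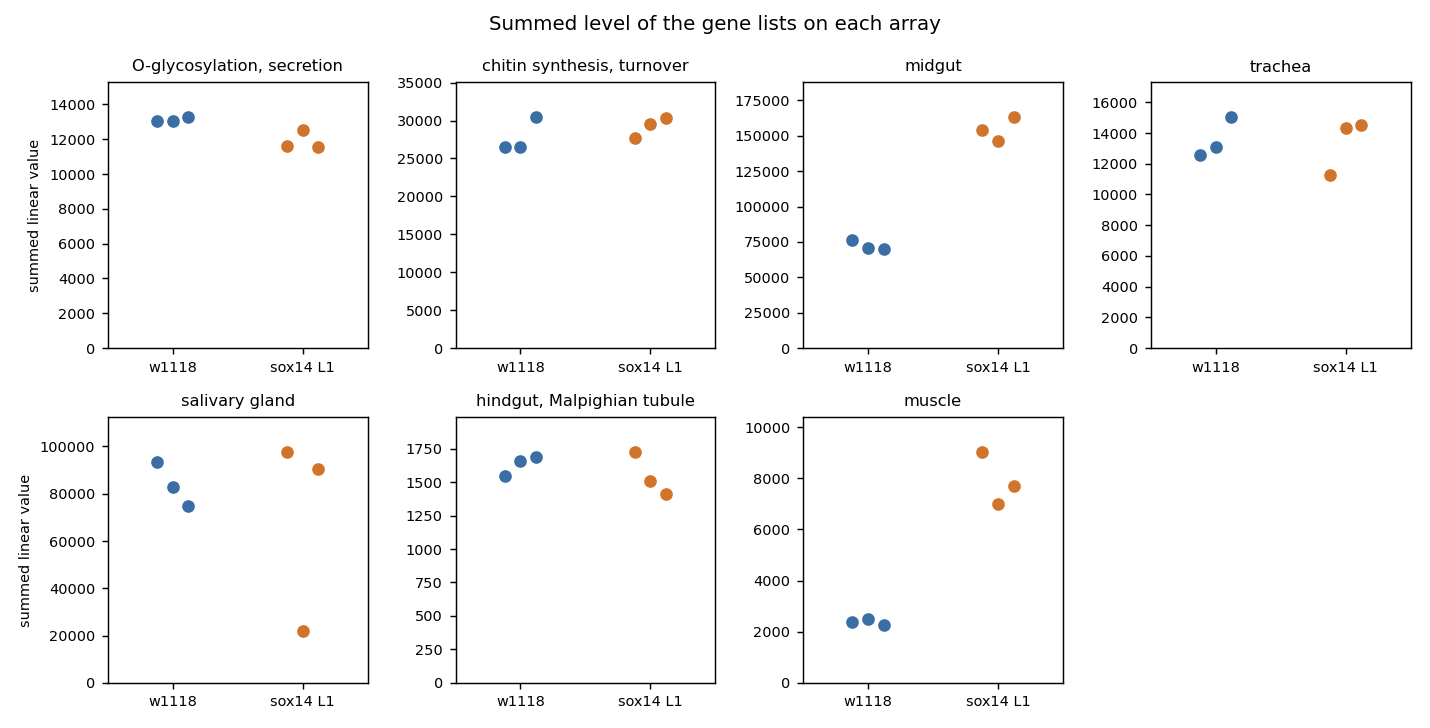
Summed linear level of each gene list on each array (sum of antilogs, axes from 0; blue w1118, orange sox14 mutant, 3 arrays each). Midgut and muscle lists lie wholly higher in the mutant, at 146391 to 163239 against 69781 to 76350 for midgut. The sum of the O-glycosylation and secretion list, in which C1GalTA weighs most, lies wholly lower, at 11572.5 to 12517.8 against 13032 to 13275. The tracheal list overlaps, and the second mutant array is low in the salivary gland list.

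The members whose call was kept with any of the 6 arrays left out were 8. Higher were Muc18B, Muc55B, Muc91C, obst-F, obst-G, obst-H and Gasp (7 genes), and lower was obst-I (1 gene). All 15 called genes were read by probe sets of the plain type, and the 4 read by a shared type (Muc12Ea, Muc68Ca, Muc96D and Peritrophin-A) were not called.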

How the data were processed

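Values are the log2 intensities that the authors deposited, for which the submitters' processing notes name RMA and Affymetrix Expression Console 1.1. RMA removes background, brings the arrays to one distribution and gives a value per probe set. RNA per animal is lost in this, and dim transcripts show changes smaller than they are. No genome build is named in the sources used here.

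Of the probe sets, 183 controls were left out and 18769 tested with lmFit and eBayes in limma 3.58.1 (R 4.3.3), genotype alone, 2-sided, with Benjamini-Hochberg adjustment over all of them and a threshold of 0.05. Every adjusted p comes from this fit, unless an array left out or another setting is named with it. The platform annotation named genes. Arms and neighbours came from RefSeq (Release 6 plus ISO1 MT), matched by gene identifier for all 31 members and 11884 of 11982 genes. Every member is named. Called members, and up to 2 others per name group with the highest mean, have all 6 values. For the O-glycosylation and chitin lists, up to 3 called genes with the lowest adjusted p are named. Muc96D, serp, btl, betaTry, Sgs3, byn, GATAe, Jon25Bii, Jon25Biii, Gfat1, reb and the midgut genes named by arm were added after their values were seen. Members and lists were chosen with earlier results of these data known. The number of arrays limits the precision. Array medians were 7.00 to 7.07, and correlations 0.993 to 0.996 within a genotype. No sequence is shown, as no sequence table was used here. Alternatives are in the closing section.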

Additional observations from a re-analysis of the deposited data

Results flagged for a closer look

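The mean of the 3 18S rRNA control probe sets was 12.2 on the first mutant array, above the 7.56 to 7.87 of the control arrays, a signal in probe sets that enter no comparison.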

How the results depend on the processing

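With each array left out in turn, 7 to 13 members were called higher and 1 to 3 lower, and their median change was 0.16 to 0.40. At a threshold of 0.01, 6 were higher and 0 lower. The median was 0.11 with array weights and 0.55 without the dimmest 40% of probe sets, where fewer members are tested. The background share was 17.2% to 22.7% with an array left out, and 22.5% with a replicate block. The block gave 12 higher and 2 lower, losing obst-B. Same-numbered arrays deviated with correlations of 0.17, -0.10 and -0.02, so the numbers were not taken to pair the samples.

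Over 393 changes recomputed for single members, 337 kept direction and side of the threshold, 22 lost the call, 7 gained one and 27 turned sign, all in members not called. Those were, with an array left out, -0.159 to 0.0406 for Muc4B, -0.0522 to 0.314 for Muc11A, -0.018 to 0.0548 for Muc12Ea, -0.162 to 0.0724 for Muc68Ca, -0.0921 to 0.0152 for Muc68D, -0.0905 to 0.0667 for Mur11Da, -0.0876 to 0.0866 for Peritrophin-A, -0.0686 to 0.100 for obst-A, -0.0685 to 0.0454 for obst-E. With median centring they were -0.0164 (Muc12Ea), -0.0334 (Mur11Da), -0.0337 (obst-A) and -0.0423 (obst-E), with quantile normalisation -0.0265 (obst-A) and -0.0229 (obst-E), with array weights -0.0091 (Mur2B) and -0.0482 (Mur11Da), and with the mean of probe sets 0.126 (Muc68Ca). The cause was not tested.

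With an array left out, calls in the lists ranged over 1 to 2 lower for O-glycosylation and 0 to 1 lower for midgut. For chitin they were 2 to 4 higher, and 3 lower each time. For trachea, and for hindgut and Malpighian tubule, they were 0 to 1 higher and 0 to 1 lower. For salivary gland they were 0 to 2 higher and 0 to 1 lower. With the replicate block the tracheal list had 2 higher and 2 lower.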
